A study of Mus musculus with 2 samples.

Results

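The 10 genes described here encode transcription factors that are used to tell the lineages of the mammary epithelium apart: Trp63, Snai2, Elf5, Ehf, Foxa1, Gata3, Tbx3, Sox4, Sox9 and Sox10. They were chosen by name and not by any measured value, and they are 10 of the 32285 genes counted. Each symbol occurred once in the gene lists of both libraries. All 10 had at least 20 unique molecular identifiers (UMIs, counts of single captured transcripts) over both libraries in each of the 3 epithelial classes compared below, and so none was lost to the minimum on counts.

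The cells came from the 4th mammary gland of virgin female C57BL/6 mice at 6 to 8 weeks of age. One group carried a deletion of Gpm6a, a gene for a neuronal membrane glycoprotein, and is called KO; the other was wild type and is called WT. The labels do not say which part of Gpm6a was removed, nor whether the deletion was present in every cell. Living cells were sorted as negative for the dye DAPI from 3 littermates of each genotype, without a statement on pooling, and 1 droplet library of 3′ ends was deposited per genotype. With 1 library per genotype there is no replicate, no p-value is given, and a difference between the libraries cannot be told apart from a difference between genotypes.

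The KO library held 11442 barcodes with 139757797 UMIs and the WT library 12291 barcodes with 160026788 UMIs. Filtering left 10452 cells of the KO library, with a median depth of 9507 UMIs, and 10777 of the WT library, with 11130. Gpm6a itself had 31 UMIs in all KO barcodes, or 0.222 CPM (UMIs of a gene per 1000000 UMIs counted), and 289 UMIs (1.81 CPM) in all WT barcodes. Of the WT UMIs, 185 lay in 28 mesothelial-like cells, a class with no KO cell. In the 3 epithelial classes together Gpm6a had 0 UMIs in KO, where a floor of 3 counts is 0.0648 CPM and the exact upper limit is 0.0796 CPM, and 17 in WT. The libraries shared 33 barcode sequences, of which 21 were analysed in both.

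The mammary duct has an outer layer of basal (myoepithelial) cells, which contract to move milk, and an inner luminal layer. The luminal layer holds progenitors of the secretory cells and hormone-sensing cells that carry the receptors for estrogen and progesterone. Each lineage is kept by a set of factors that bind DNA and switch genes on or off, and loss of single factors of this set is known to disturb the gland: without p63 (Trp63) no gland forms, without Elf5 alveoli fail to make milk, and without Gata3 or Foxa1 ducts grow poorly. Snai2 (Slug) is known as a repressor of luminal genes in basal cells.

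Classes were defined by marker genes that do not include the 10 factors, and the factors were also left out of the genes used for clustering. The class names below mean cells like that type. Basal-like cells (937 KO and 1439 WT) were named from Krt5, Krt14, Krt17, Acta2, Mylk, Oxtr and Cnn1, luminal progenitor-like cells (447 and 314) from genes such as Aldh1a3, Kit, Csn3 and Lalba, and hormone-sensing luminal-like cells (1238 and 968) from Prlr, Esr1, Areg, Cited1, Prom1, Tph1 and Pgr. These 3 classes held 25.1% of KO and 25.2% of WT cells. Most of the remaining named classes were stromal or immune. There were also 299 keratinocyte-like cells in the WT library and small skeletal muscle-like, Schwann-like and mesothelial-like classes. The labels speak of epithelial cells, but fibroblast-like cells were the most numerous class with 4576 KO and 3823 WT cells. Levels are CPM within a class and library, with exact Poisson intervals at 95% that cover counting error only.

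Sequence upstream of the start was at hand for 4 of the 10 factors, in 5 windows of 250 bases from RefSeq on GRCm38.p6. The stretches of Elf5 and Foxa1 are shown because these are the factors among the 4 with a luminal class as their leading class, as described below. In all, 5 short motifs were searched on both strands. The forkhead motif was GTAAACA and the motif of GATA factors was AGATAA. For the ETS family the letters AGGAAG were used, and for the SOX family AACAAAG. The E-box bound by Snail proteins was CAGGTG, which reads CACCTG when its partner strand is printed. Capitals mark the matches, all stretches run 5′ to 3′ on the strand of the gene, and bases in annotated exons of the gene were left out except around a match.
Elf5, chr2:103411933-103411958: gaccctgctaCACCTGggaggctgct
Elf5, chr2:103411976-103412001: gaggaggtgcCACCTGcctggaagca
Elf5, second start, chr2:103423818-103424061: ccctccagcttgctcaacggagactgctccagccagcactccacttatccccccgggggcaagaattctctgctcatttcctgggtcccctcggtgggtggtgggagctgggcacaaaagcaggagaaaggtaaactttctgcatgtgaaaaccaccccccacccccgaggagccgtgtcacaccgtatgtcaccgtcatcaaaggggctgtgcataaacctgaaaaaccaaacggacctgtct
Foxa1, chr12:57546122-57546361: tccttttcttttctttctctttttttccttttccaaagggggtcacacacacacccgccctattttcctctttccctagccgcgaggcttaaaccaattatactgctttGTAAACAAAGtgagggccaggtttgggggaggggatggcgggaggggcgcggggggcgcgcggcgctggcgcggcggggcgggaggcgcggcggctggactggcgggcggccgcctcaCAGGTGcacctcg
In the first Elf5 window the Snail E-box matches shown end 150 and 107 bases before the start, inside an exon of a longer annotated transcript. A further Snail E-box of this window, ending 6 bases before the start, is not printed. The window of the second Elf5 start held none of the 5 motifs. The Foxa1 window held a forkhead match and a SOX match that overlap, ending 135 and 132 bases before the start, and 1 Snail E-box ending 18 bases before it. Of all 32851 windows of that length, 17.2% held the Snail E-box, 3.17% the forkhead, 5.03% the SOX, 9.99% the GATA and 29.5% the ETS letters. The Gata3 window held none of the 5, and the Sox4 window held 1 ETS match 66 bases before the start. These are matches of letters and not measured binding.

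Each of the 10 factors had its highest epithelial level in the same class in both libraries, and 7 of the 10 had a leading class. The highest class was also the same for 52 of the 56 further transcription factors read below, and the share over all genes was not taken. A leading class is one in which the level was at least 2-fold that of both other epithelial classes in both libraries, with 1 CPM added. The basal class led for 3 factors (Trp63, Snai2 and Sox4), where 7.84% of 15723 genes had basal as their leading class. The progenitor class led for 2 (Elf5 and Ehf; 2.7% of genes), and the hormone-sensing class for 2 (Foxa1 and Tbx3; 5.14% of genes). Gata3, Sox9 and Sox10 had no leading class. The heat map of levels by class shows the block of each group.

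**Figure D1:**
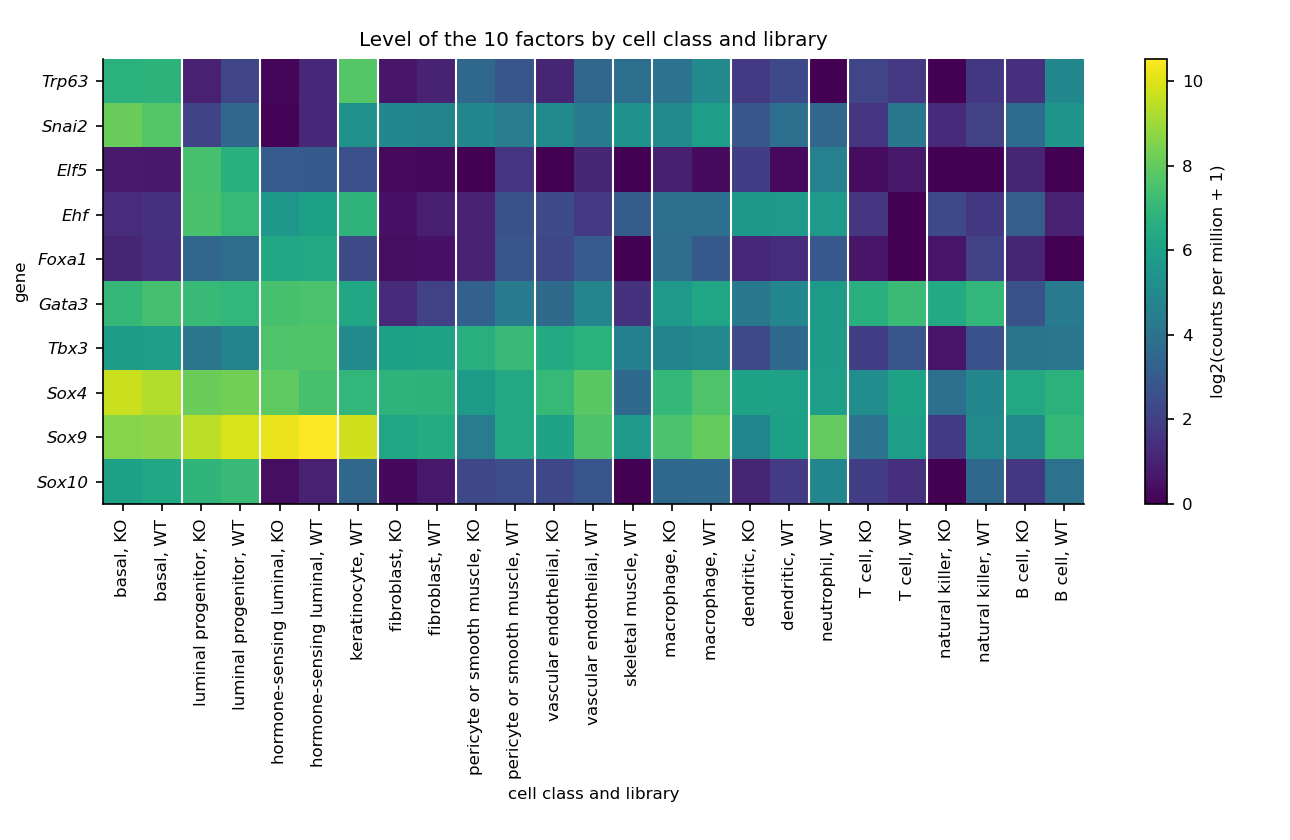
Heat map of log2(CPM + 1) for the 10 factors (rows) in each named class with at least 50 cells in a library (columns, KO and WT side by side). Trp63 and Snai2 are bright in basal cells and dark in both luminal classes, Elf5 is brightest in luminal progenitor cells, and Sox9 is brightest in hormone-sensing luminal cells.

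Trp63 and Snai2 marked the basal class. Trp63 (ENSMUSG00000022510; GRCm38 chr16:25683763-25892102, plus strand), which encodes p63, a factor needed for stratified and basal epithelia, had 104 CPM (99.1 to 109) in KO and 111 CPM (107 to 116) in WT basal cells, from 1644 and 2522 UMIs. In luminal progenitor cells it had 0.98 CPM in KO and 3.65 CPM in WT, from 6 and 15 UMIs, and in hormone-sensing cells 0.123 and 1.34 CPM, from 3 and 30 UMIs. The basal level was thus 53.1-fold in KO and 24.2-fold in WT that of progenitor cells, the next class, with 1 CPM added. Trp63 UMIs were found in 55.5% of KO and 55.5% of WT basal cells; after each cell was thinned to 2000 UMIs the shares were 15.1% and 15.7%, against 0.15% and 0.368% of T cell-like cells, which should lack the gene (median depths 14264 and 12609 UMIs in basal cells, 4652 and 5180 in T cells). The share was higher in macrophage-like cells, at 1.38% and 2.36%, and in WT B cell-like cells, at 2.22%, and in all of these it was below that of basal cells. Among all classes of the WT library, keratinocyte-like cells had the highest level of Trp63, 214 CPM.

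Snai2 (ENSMUSG00000022676; chr16:14705852-14709385, plus strand) had 278 CPM (270 to 287) in KO and 212 CPM (206 to 218) in WT basal cells. In progenitor cells it had 3.43 and 10.2 CPM, and in hormone-sensing cells 0.082 and 1.29 CPM. Like Trp63, it separated basal from luminal cells: after thinning, 31.8% of KO and 24.6% of WT basal cells had a Snai2 UMI, against at most 0.727% in the luminal classes. Unlike Trp63 it was also counted in fibroblast-like cells, with 29.1 CPM in KO and 25.9 CPM in WT from 1132 and 1099 UMIs. Macrophage-like cells had 31.9 and 57.9 CPM, and B cell-like cells 12 and 44.1 CPM. After thinning, 4.63% of KO and 4.98% of WT fibroblast-like cells had a Snai2 UMI. The shares were 0.917% and 3.77% in macrophage-like cells and 0.826% and 6.67% in B cell-like cells. The WT share thus did not set fibroblast-like cells apart from B cell-like cells. After thinning, 5.69% (4.29 to 7.37) of KO and 5.22% (4.12 to 6.52) of WT basal cells had UMIs of both Snai2 and Trp63, beside products of the separate shares of 4.8% and 3.87%.

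Elf5 and Ehf, members of the ETS family, marked luminal progenitor cells. Elf5 (ENSMUSG00000027186; chr2:103411688-103450989, plus strand), the factor that drives alveolar cells towards milk production, had 173 CPM (163 to 184) in KO and 103 CPM (93 to 113) in WT progenitor cells. It had 7.34 and 6.85 CPM in hormone-sensing cells and 0.697 and 0.661 CPM in basal cells. The progenitor level was 20.9-fold in KO and 13.2-fold in WT that of hormone-sensing cells. Outside the epithelium Elf5 was near 0, at 0.563 CPM in KO and 0.62 CPM in WT over the other named classes with keratinocytes left out.

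Ehf (ENSMUSG00000012350; chr2:103263433-103303278, minus strand) lies 108409 bases from Elf5 on the same chromosome, with 2 genes of the files between them, and had a broader pattern. Its level was 179 CPM (169 to 190) in KO and 132 CPM (121 to 143) in WT progenitor cells, 48.6 and 63.2 CPM in hormone-sensing cells and 1.52 and 1.85 CPM in basal cells. Ehf was thus in both luminal classes and near background in basal cells. Outside the epithelium it had 48.4 CPM in KO and 49.6 CPM in WT dendritic-like cells. Within them it lay in cluster 17, the mature cells with Ccl22 and Il12b, at 124 and 133 CPM, and was lower in cluster 11, the Cd209a cells, at 11.7 and 16.8 CPM. In the WT keratinocyte-like cells it had 115 CPM, with an interval that overlaps that of WT progenitor cells.

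Elf5 and Ehf UMIs met in the same progenitor cell in 8.82% of KO cells and 4.73% of WT cells after thinning, beside products of their shares of 6.71% and 3.91%. Ehf and Sox10 met in 7.69% and 6.18%, beside products of 5.05% and 4.29%. Elf5 and Sox10 met in 7.24% and 4%, beside products of 4.92% and 3.78%. Of the 45 pairs of factors in KO progenitor cells the interval lay above the product for 2, Elf5 with Sox10 (5 to 10.1) and Ehf with Sox10 (5.39 to 10.6), and below it for 0. In WT progenitor cells it lay above for 1 of 45, Foxa1 with Tbx3 in 3 cells, and below it for 0. For Elf5 with Ehf the intervals, 6.35 to 11.9 in KO and 2.54 to 7.95 in WT, held the product.

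Foxa1 and Tbx3 marked hormone-sensing cells. Foxa1 (ENSMUSG00000035451; chr12:57540628-57546916, minus strand), the pioneer factor that opens chromatin for the estrogen receptor, had 78.9 CPM (75.4 to 82.5) in KO and 80 CPM (76.4 to 83.8) in WT hormone-sensing cells. In progenitor cells it had 10.1 and 12.4 CPM and in basal cells 1.14 and 1.68 CPM. The level in hormone-sensing cells was 7.18-fold and 6.05-fold that of progenitor cells. Foxa1 UMIs were seen in 69.8% and 72% of hormone-sensing cells as counted and in 12.6% and 16.3% after thinning.

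Tbx3 (ENSMUSG00000018604; chr5:119670669-119684724, plus strand), a T-box factor needed for the mammary placode, had 196 CPM (191 to 202) in KO and 203 CPM (197 to 209) in WT hormone-sensing cells. Basal cells came next with 53.2 and 56.8 CPM, and progenitor cells had the lowest epithelial level with 16.8 and 25 CPM. Tbx3 was also counted across the stroma. Pericyte or smooth muscle-like cells had 100.2 CPM in KO and 138 CPM in WT, vascular endothelial-like cells 85.2 and 105 CPM, and fibroblast-like cells 61.1 and 65.8 CPM. The levels in pericytes and endothelium had overlapping intervals in KO, and did not overlap in WT. Tbx3 was low in T cell-like cells, at 2.73 and 5.83 CPM.

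Gata3 (ENSMUSG00000015619; chr2:9857078-9890034, minus strand), a zinc-finger factor needed to keep luminal cells, was present in all 3 epithelial classes at similar levels. Hormone-sensing cells had 174 CPM (169 to 179) in KO and 188 CPM (183 to 194) in WT, progenitor cells 140 and 124 CPM, and basal cells 128 and 170 CPM. The order of progenitor and basal cells differed between the libraries: their intervals overlapped in KO (131 to 150 against 123 to 134), and in WT the basal level lay above (165 to 176 against 113 to 135). After thinning, 20.8% of KO and 27.5% of WT basal cells had a Gata3 UMI, against 1.12% and 1.95% of pericyte or smooth muscle-like cells. Gata3 overlaps a further counted gene on the same strand, 9230102O04Rik, so its counts are uncertain in the shared stretch.

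Gata3 was also counted in lymphocytes, where it is known to direct type 2 helper T cells and innate lymphoid cells. T cell-like cells had 97 CPM in KO and 145 CPM in WT, and natural killer-like cells 84.5 and 126 CPM. Within the T cell class it was highest in cluster 23, whose leading genes include Il5 and Il17a, with 247 and 427 CPM, followed by cluster 26 with Foxp3 (119 and 141 CPM) and cluster 10 with Cd8b1 and Lef1 (28 and 36.4 CPM). B cell-like cells had 5.14 and 18.6 CPM.

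The 3 Sox factors had 3 different patterns. Sox4 (ENSMUSG00000076431; chr13:28948919-28953713, minus strand), a SoxC factor known in progenitor and mesenchymal programmes, was highest in basal cells, with 822 CPM (808 to 836) in KO and 642 CPM (632 to 653) in WT. Progenitor cells had 287 and 308 CPM and hormone-sensing cells 244 and 177 CPM. The basal level was 2.86-fold in KO and 2.08-fold in WT that of progenitor cells, the latter close to the limit for a leading class; with a limit of 5% mitochondrial UMIs Sox4 had none. Outside the epithelium Sox4 had 114 and 110 CPM in fibroblast-like cells and 131 and 230 CPM in vascular endothelial-like cells.

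Sox9 (ENSMUSG00000000567; chr11:112782224-112787760, plus strand), known in luminal progenitors and in stem cells of several epithelia, ran the other way across the epithelium. It had 1207 CPM (1194 to 1221) in KO and 1478 CPM (1462 to 1494) in WT hormone-sensing cells, 712 and 976 CPM in progenitor cells and 396 and 419 CPM in basal cells, and no 2 of these neighbours had overlapping intervals in either library. A Sox9 UMI was seen in 98.3% of KO and 97.2% of WT hormone-sensing cells as counted. Keratinocyte-like cells of WT had 864 CPM.

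Sox10 (ENSMUSG00000033006; chr15:79154908-79165240, minus strand), a SoxE factor best known from the neural crest and glia, joined the basal and progenitor classes and was near 0 in hormone-sensing cells. It had 119 CPM (111 to 128) in KO and 136 CPM (125 to 148) in WT progenitor cells, 62.7 and 77.7 CPM in basal cells, and 0.328 and 0.979 CPM in hormone-sensing cells, from 8 and 22 UMIs. The level in progenitor cells was 90.4-fold in KO and 69.3-fold in WT that of hormone-sensing cells, and 1.88-fold and 1.74-fold that of basal cells. The progenitor class led for Sox10 under 6 of 17 alternative settings. In the Schwann-like cells, the glia of nerves, Sox10 had 73.5 CPM in 32 KO cells and 189 CPM in 33 WT cells, from 12 and 38 UMIs.

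**Figure D2:**
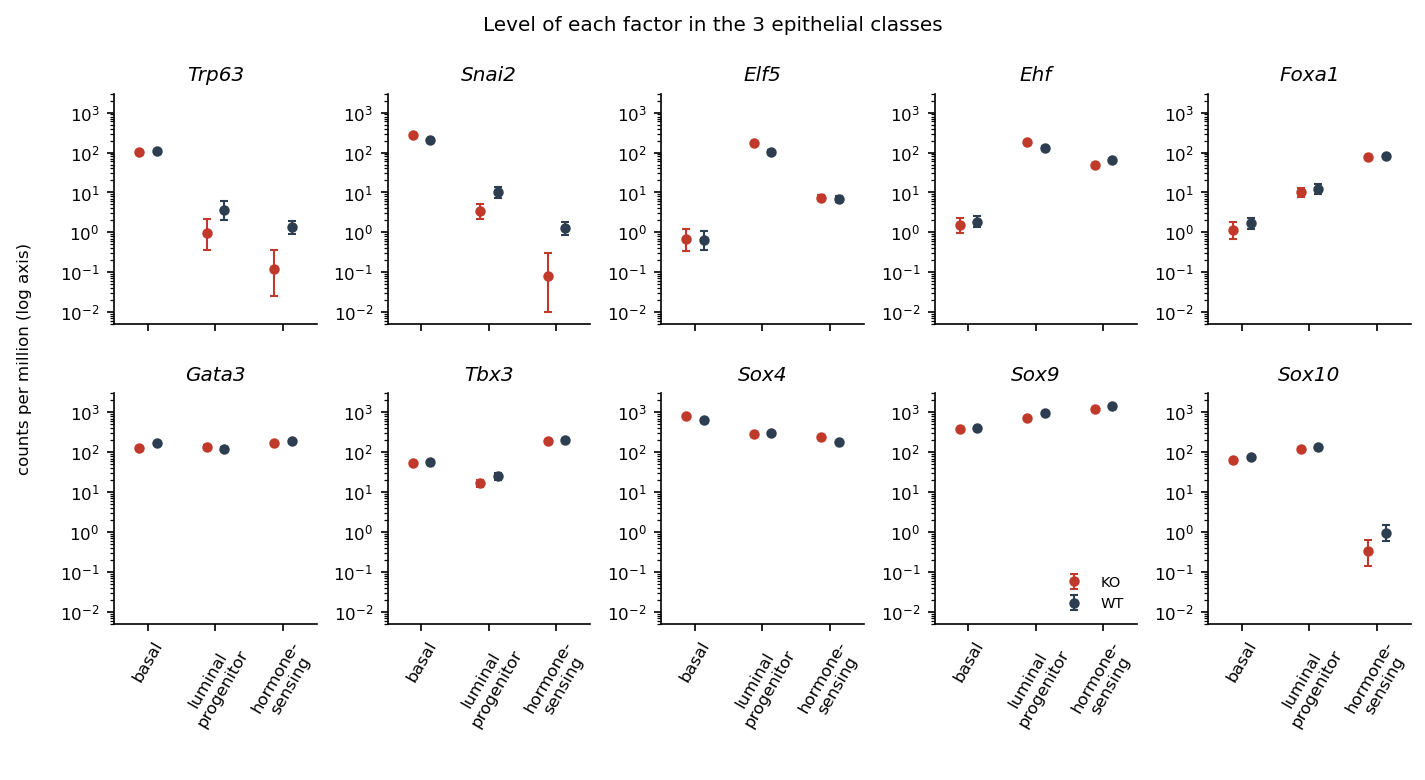
Level of each factor in CPM (log axis, the same for all panels) in basal, luminal progenitor and hormone-sensing luminal cells; red points are the KO and dark points the WT library, and bars are exact Poisson 95% intervals. Elf5 and Ehf peak in progenitor cells, Sox9 climbs from basal to hormone-sensing cells in both libraries, and Sox10 is under 1 CPM in hormone-sensing cells.

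Counted per cell, the factors were common in epithelium and sparse elsewhere. After thinning to 2000 UMIs a basal cell had UMIs of 2.03 of the 10 factors on average in KO and 2.01 in WT, a progenitor cell 1.9 and 1.95, and a hormone-sensing cell 1.86 and 1.86. No stromal or immune class was above 0.602, the mean of WT vascular endothelial-like cells, and WT keratinocyte-like cells had 1.7. Cells under 2000 UMIs were left out: 5 KO and 41 WT basal cells, 5 and 39 progenitor cells and 9 and 31 hormone-sensing cells. Summed over the other named classes, keratinocyte-like cells left out, all 10 factors had a higher level in WT than in KO. The share of all genes that did so was not taken. The sum mixes classes of unlike size, with 181 KO and 496 WT pericyte or smooth muscle-like cells for example. Of the 9 factors with at least 20 UMIs in fibroblast-like cells, 7 were lower in KO and 2, Snai2 and Sox4, were higher. Of the further transcription factors read below, 43 of 53 were lower in KO there. Sox9 had 67.5 CPM in KO and 103 CPM in WT in the sum. It was lower in KO in 8 of 8 stromal and immune classes compared. The median log2 of the KO to WT ratio over all genes was also below 0 in each of these classes. It ran from -0.05 in B cell-like to -0.18 in dendritic-like cells.

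In basal cells 0 of 10 factors passed a 1.5-fold ratio in either direction between the libraries, where 6.89% of 13834 genes with at least 20 UMIs did. The median log2 of the KO to WT ratio (1 CPM added on both sides) was -0.09 over the factors and -0.03 over all genes. Among the factors with at least 100 UMIs over both libraries, the largest differences were those of Snai2 and Sox4, higher in KO by 0.39 (0.34 to 0.45) and 0.36 (0.32 to 0.39) on the log2 scale, and of Gata3 and Sox10, at -0.40 (-0.49 to -0.33) and -0.30 (-0.42 to -0.19). The sign of Sox10 turned under 3 alternatives, to 0.15 with clusters made at resolution 0.5, 0.14 in the largest basal cluster alone and 0.08 after thinning. Trp63 had -0.09 (-0.19 to -0.00495), Sox9 -0.08 and Tbx3 -0.09. Elf5 had 11 KO and 15 WT UMIs in basal cells, Ehf 24 and 42 and Foxa1 18 and 38, and the intervals of their ratios included 0; Foxa1 had -0.32, and 0.61 after thinning.

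In luminal progenitor cells Elf5 was 1.68-fold higher in KO, a log2 ratio of 0.75 (0.59 to 0.92) from 1062 KO and 422 WT UMIs. As counted, 73.2% of KO and 54.1% of WT progenitor cells had an Elf5 UMI, at median depths of 11446 and 11144 UMIs; after thinning the shares were 25.6% (21.6 to 29.9) and 18.5% (14.1 to 23.7), whose intervals overlap. The 5 cells with most Elf5 held 6.97% of its KO and 10.4% of its WT UMIs. Its neighbour Ehf had a log2 ratio of 0.44 (0.29 to 0.59) and Gata3 0.17 (0.02 to 0.34), while Sox9 had -0.45, Sox10 -0.19, Sox4 -0.10 and Foxa1 -0.27. The sign of Sox4 turned under 4 of 17 alternatives and that of Foxa1 under 1. The summed level of the 8 progenitor markers was 16402 CPM in KO and 17107 CPM in WT.

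In all, 3 of 10 factors passed 1.5-fold in progenitor cells, where 17.4% of 11285 genes did, with a median log2 ratio of -0.23 over the factors and -0.04 over all genes. The other 2 were Trp63 and Snai2, lower in KO at -1.23 and -1.34, from 6 against 15 and 21 against 42 UMIs. Markers of some other cells moved with these few UMIs. The summed level of the 7 basal markers in progenitor cells was 191 CPM in KO and 620 CPM in WT. That of the 7 fibroblast markers was 310 and 2330 CPM, with no marker of either list at 0. The 7 pericyte or smooth muscle markers had 50.3 and 123 CPM, with 1 at 0 in each library. T cell markers, 6 in all, went the other way, at 31.4 CPM in KO and 13.4 CPM in WT. The single cell with most Snai2 held 61.9% of its KO and 52.4% of its WT UMIs. The part of other cells in these ratios was not tested. With called doublets kept, 1 factor, Elf5, was counted as past the fold: Trp63 then had -0.37, and Snai2, at -1.02, missed the minimum of 20 UMIs. Tbx3 had -0.55 (-0.98 to -0.17), but 0.51 with called doublets kept, and 5 WT cells held 51.5% of its WT UMIs. Its sign turned under 4 of 17 alternatives.

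Progenitor cells came from 2 clusters, of which cluster 33 had 34 WT cells and 1 KO cell with a median of 1649 UMIs in WT. In the other, cluster 7, Elf5 had 174 CPM in KO and 105 CPM in WT, a log2 ratio of 0.72 (0.56 to 0.89). Tbx3 moved to -0.30 (-0.75 to 0.12) without cluster 33. Trp63 and Snai2 stayed past 1.5-fold lower in KO, at -1.19 and -1.58, from 6 against 14 and 17 against 41 UMIs. 

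In hormone-sensing cells 2 of 10 factors passed 1.5-fold, where 7.55% of 13381 genes did, with a median log2 ratio of -0.20 over the factors and -0.07 over all genes. Both were the basal factors at trace levels, Trp63 with 3 KO and 30 WT UMIs and Snai2 with 2 and 29. The summed basal markers moved the same way, from 18.7 CPM in KO to 75.1 CPM in WT with none at 0, and their part was not tested. T cell markers did not, with 16.6 CPM in KO and 13.8 CPM in WT. Sox10, with 8 KO and 22 WT UMIs, lay just under the limit at -0.58 with 1 CPM added, and had -1.33 with 0.1 CPM added and 1.15 after thinning. The interval of its ratio without added CPM was -2.96 to -0.36. With 5 CPM added in place of 1, or after thinning, 0 of the factors with enough UMIs passed. Of the better counted factors, Sox4 was higher in KO at 0.46 (244 and 177 CPM), Ehf lower at -0.37 (48.6 and 63.2 CPM) and Sox9 lower at -0.29. Foxa1, Tbx3 and Gata3, whose highest epithelial level lies in this class, had ratios of -0.02, -0.05 and -0.12. The sign of Foxa1 turned under 4 of 17 alternatives, up to 0.08 with TMM scaling. That of Tbx3 turned under 2 of 17, up to 0.14 after thinning.

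**Figure D3:**
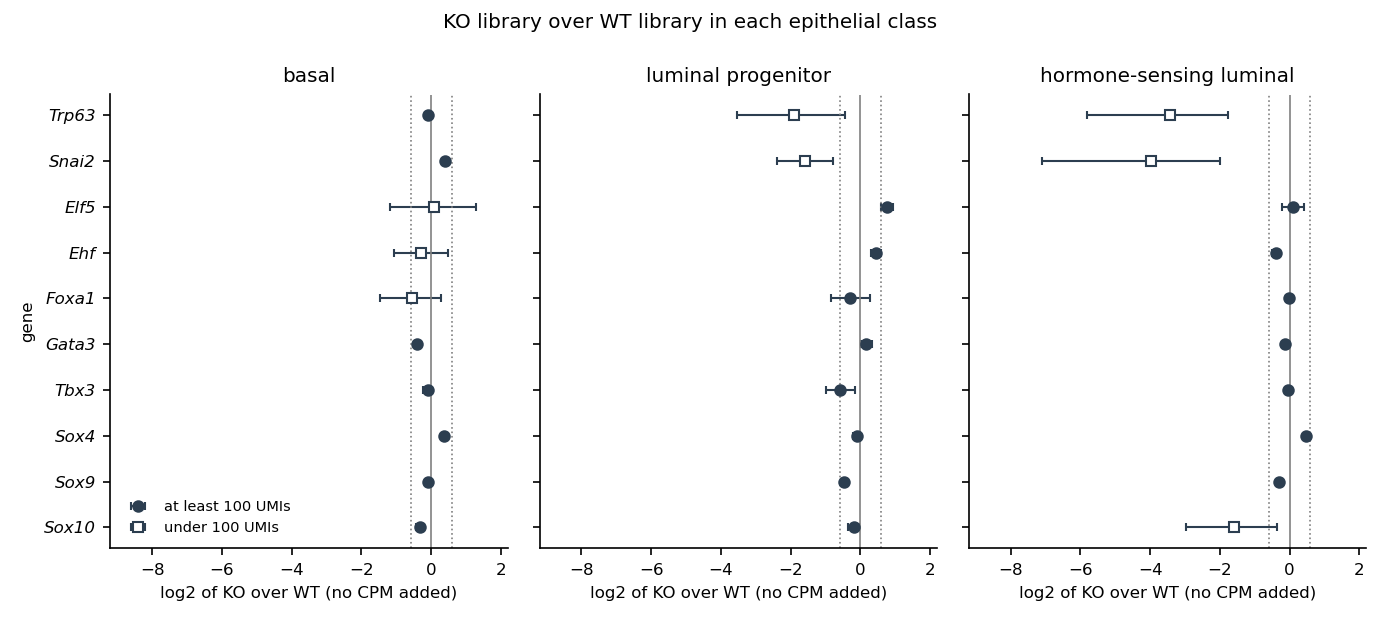
Log2 of KO over WT level (no CPM added) for each factor in the 3 epithelial classes, with exact conditional 95% intervals of counting error; open squares have under 100 UMIs over both libraries and dotted lines mark 1.5-fold. Elf5 in luminal progenitor cells lies to the right of the upper line, and Trp63 and Snai2 in both luminal classes lie to the left of the lower line with wide intervals. Sox10 in hormone-sensing cells also lies to the left of it here, where no CPM is added.

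The basal class was made of 2 clusters in nearly the same proportion in both libraries, and the factors split between them. Cluster 3 (776 KO and 1190 WT cells, 82.8% and 82.7% of basal cells) led with Slpi, Cnn1, Krt14, Krt17 and Oxtr. All of these but Slpi were also used to name the class, and only Cnn1 and Oxtr are genes of contraction. Cluster 15 (161 and 249 cells) led with Lbhd2, Gpx2, Serpinb11, Lama1 and Col9a1, and had more UMIs per cell (medians 18420 and 19840 against 12780 and 10940). The clusters were defined by all other variable genes of these cells, so the levels of the factors in them are a description.

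Trp63 and Sox10 were higher in cluster 15 in both libraries. Trp63 had 192 CPM in KO and 207 CPM in WT in cluster 15 and 81.5 and 81.3 CPM in cluster 3, so it was 2.34-fold and 2.53-fold higher there. Sox10 had 126 and 193 CPM against 46.4 and 41.8 CPM, 2.69-fold and 4.52-fold higher. Snai2 was 1.27-fold higher in KO and 2.64-fold in WT, with 335 and 403 CPM in cluster 15 and 264 and 152 CPM in cluster 3. Of the remaining abundant factors, 3 had a higher level in cluster 3 in both libraries. Sox9 was 2.97-fold and 2.36-fold higher there (458 and 485 CPM against 154 and 205 CPM), Sox4 2.35-fold and 1.51-fold, and Gata3 1.27-fold and 1.52-fold. Tbx3 was 1.53-fold higher in cluster 3 in KO and 1.14-fold in WT. In WT the interval of its ratio of cluster 15 to cluster 3, 0.765 to 1.002, included 1.

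The ratio of Snai2 between libraries had opposite signs in the 2 clusters. It was higher in KO in cluster 3, at 0.79 (0.72 to 0.87), and lower in cluster 15, at -0.27 (-0.37 to -0.16). Sox4 did likewise, at 0.42 (0.38 to 0.45) and -0.23 (-0.32 to -0.13). Snai2 was the 1 factor of 10 past 1.5-fold in cluster 3, where 10.8% of genes passed, and Sox10 the 1 of 7 with at least 20 UMIs in cluster 15, at -0.60 (-0.78 to -0.44), where 12.8% of genes passed. Trp63 stayed near 0 in both, at 0.00 and -0.11. Whether the clusters differ in these ratios was not tested, since there is 1 library per genotype.

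**Figure D4:**
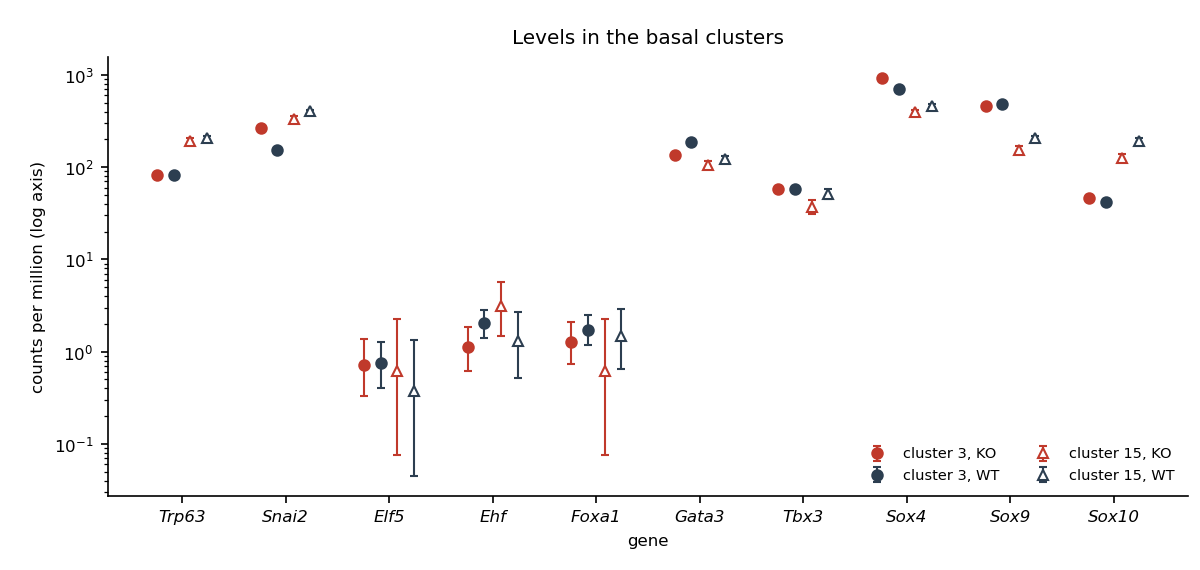
Level of each factor in CPM (log axis) in basal clusters 3 (filled circles) and 15 (open triangles), KO in red and WT in dark, with exact Poisson 95% intervals. Trp63, Snai2 and Sox10 are higher in cluster 15, Sox4, Sox9 and Gata3 are higher in cluster 3, and the KO and WT points of Snai2 change order between the clusters.

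Cluster 24 carried cell division genes (Ccnb1, Cdk1 and Cdc20) with leading genes of cluster 15, and met too few basal markers for a name. Its 47 KO and 92 WT cells had the basal factors too: 105 and 151 CPM of Trp63, 213 and 293 CPM of Snai2 and 96.5 and 183 CPM of Sox10. A second dividing cluster, 22, had the luminal set instead. In its 98 KO and 107 WT cells Foxa1 had 74.2 and 77.6 CPM, Elf5 28.5 and 29.9 CPM and Ehf 98 and 144 CPM, while Trp63 had 3 and 5 UMIs. Sox10 in cluster 22 had 20.7 CPM in KO and 43.3 CPM in WT.

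Cluster 6 stayed without a name because it held markers of both luminal classes. Its 452 KO and 330 WT cells had a median of 31380 and 34180 UMIs, against 11446 and 11144 in progenitor and 16856 and 19940 in hormone-sensing cells. Factors of both classes were counted in it at levels between theirs: Elf5 had 58.5 and 38.6 CPM, Sox10 47.5 and 46.8 CPM, Foxa1 63 and 59.6 CPM and Tbx3 157 and 160 CPM. Trp63 and Snai2 were under 1.5 CPM in both libraries. Elf5 was the 1 factor of 10 past 1.5-fold between the libraries, at 0.59 (0.44 to 0.76), where 7.16% of 13079 genes passed. Elf5 and Foxa1 UMIs met in 4 of 451 thinned KO cells and 1 of 319 WT cells, 0.887% and 0.313%, beside products of 1.25% and 0.869%; as counted, 56.2% and 45.5% of its cells had both, beside products of 56.3% and 42.7%. Whether its barcodes held 1 cell or more was not tested.

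**Figure D5:**
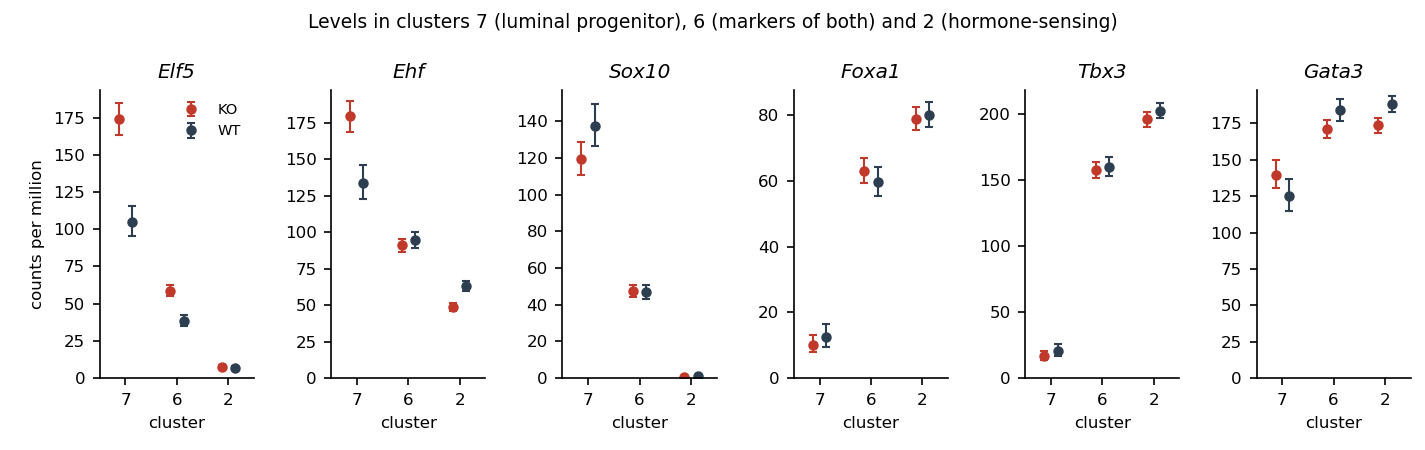
Level in CPM (linear axis from 0) of 6 factors in cluster 7 (luminal progenitor), cluster 6 (markers of both luminal classes) and cluster 2 (hormone-sensing), KO in red and WT in dark, with exact Poisson 95% intervals. Elf5, Ehf and Sox10 step down and Foxa1 and Tbx3 step up from cluster 7 through 6 to 2, and Elf5 is higher in KO in clusters 7 and 6.

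The genes whose levels across classes were most like those of each factor were found over 22 points, 11 classes with at least 50 cells in both libraries times 2 libraries, by Pearson correlation of log2(CPM + 1). Points of a library share its free RNA and depth, and the classes were built from genes such as these, so the values are a description. Trp63 was most like Lama1 (r = 0.94), Cdh3 and Moxd1, and Snai2 most like Ecrg4 (0.96), Fst and Pappa. Elf5 was most like Plb1 (0.94), Slc5a8 and Bglap3, and Ehf most like Rhov (0.88), Mrpl14 and Depdc7. Foxa1 was most like Aqp5 (0.96), Mlph and Abcc3, Tbx3 most like Tspan4 (0.94), Phldb2 and Dst, and Gata3 most like Bzw2 (0.92), Pkp3 and Pak1. Nhsl1 (0.93) and Fhdc1 were among the genes most like Sox4, Sox9 was most like Ank3 (0.94), Rtkn and F3, and Sox10 most like Lgr6 (0.95), Tfap2c and Plekhb1. Among the 10 factors themselves the pairs with the highest values were Sox4 with Sox9 (0.86), Trp63 with Snai2 (0.80) and Elf5 with Ehf (0.78), and the lowest was Snai2 with Ehf (-0.48).

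A further 57 transcription factors known in epithelium or mesenchyme were listed from general knowledge and read the same way. Of the 56 with enough UMIs for the class rule, 21 had a leading class: 8 basal (Tfap2c, Id4, Bcl11b, Tbx2, Msx1, Foxp1, Yap1 and Mycn), 5 luminal progenitor (Foxc1, Foxi1, Irx3, Barx2 and Sox6) and 8 hormone-sensing (Esr1, Pgr, Stat5a, Spdef, Msx2, Cited1, Tfcp2l1 and Myb). Esr1, Pgr and Cited1 also served as class markers, and their place is no finding. Id4, an inhibitor of helix-loop-helix factors, had 256 CPM in KO and 265 CPM in WT basal cells, 65.1-fold and 18.8-fold above progenitor cells. Barx2, a homeobox factor, had 126 and 86.8 CPM in progenitor cells, and Msx2, another, 60.9 and 59.2 CPM in hormone-sensing cells.

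Between the libraries, 0 of 54 such factors in basal cells were past 1.5-fold upwards in KO and 8 downwards, where 6.89% of all genes were past it either way. In progenitor cells the counts were 2 up and 12 down of 49 (17.4% of all genes), and in hormone-sensing cells 0 up and 7 down of 49 (7.55%). Hes1, a Notch target, was among the lowest in basal cells (156 CPM in KO and 356 CPM in WT, log2 -1.18) and in hormone-sensing cells (665 and 1181 CPM, -0.83); Twist1 (-1.37) and Twist2 (-1.31), factors of mesenchyme, lay below it in basal cells from 35 against 166 and 11 against 73 UMIs. The summed fibroblast markers in basal cells were 587 CPM in KO and 1352 CPM in WT with none at 0, and their part in the Twist values was not tested. T cell markers in basal cells went the other way, with 19.5 CPM in KO and 12 CPM in WT. The highest in basal cells were Cebpb (1958 and 1399 CPM, 0.48), Ovol1 (0.23) and Grhl1 (0.19).

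In progenitor cells the factors with the highest ratios were Foxi1 (23.8 and 10.9 CPM, 1.06), Hey1 (45.2 and 26.5 CPM, 0.75) and Barx2 (0.53). Foxi1 and Barx2 have progenitor cells as their leading class, as Elf5 does. The other listed factors led by this class did not all rise in KO. Sox6 had 20.3 CPM in KO and 15.6 CPM in WT progenitor cells, Foxc1 53.6 and 53.5 CPM, and Irx3 105 and 130 CPM. The lowest were Id4 (-1.84), Zeb2 (-1.43) and Snai1 (-1.17), at 13.6 CPM or less in either library; Id4 is led by basal cells, and Zeb2 and Snai1 are known from mesenchyme. The basal and fibroblast markers that moved the same way are given above, and their part was not tested. In hormone-sensing cells the highest were Cited1 (1513 and 1211 CPM, 0.32) and Ovol2 (0.26), and the lowest besides Hes1 were Zeb2 (-1.11) and Barx2 (-0.98), both at 2.31 CPM or less.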

How the data were processed

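Droplet 3′ RNA sequencing was deposited as 1 count matrix per genotype. Per the file headers and the submitters' processing notes, the authors made these raw UMI counts per gene and barcode with Cell Ranger 5.0.1 on mm10; the notes also name Seurat 3.2.0. The annotation and the rule behind the deposited barcodes are not given in the sources used here.

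Barcodes under 500 genes, under 1000 UMIs or above 10% mitochondrial UMIs were dropped, leaving 10907 KO and 10984 WT barcodes, and Scrublet removed 455 and 207 called doublets. Cells were scaled to 10000 UMIs and logged, and clustered jointly, without correction between libraries, on 1990 variable genes without the factors (scanpy 1.11.5; 30 components, 20 neighbours, Leiden resolution 1). Of 36 clusters, 26 were named from markers of 22 cell types. A marker counted when at least 2-fold above other cells and seen in at least 10% of cells; a name needed at least 3 markers, 50% of the type, a mean log2 fold of at least 1 and a lead of 0.5. Unnamed clusters held 7.6% of KO and 16.8% of WT cells.

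UMIs were summed per class and library. With 1 library per genotype no test was possible. Intervals are exact (Poisson for levels, conditional on the total for ratios, Clopper-Pearson for shares) at 95% and cover counting error only. Intervals of ratios are those of the ratio without added CPM. Where UMIs are few the printed ratio can therefore lie outside its interval. Snai2 in hormone-sensing cells, at -1.08 with an interval of -7.09 to -1.99, is an example. Ratios used 1 CPM added and genes with at least 20 UMIs over both libraries. The ratio step was tested on simulated data. All 10 factors are named; other genes were named by rank of correlation (3 per factor), by the 3 highest and 3 lowest ratios among listed factors with at least 50 UMIs, or by a leading class. A few items that these rules pick are not reported here. Clusters described in the text were chosen after their values were seen. The members, lists and naming limits were chosen with earlier results of these data known. Alternatives varied the filters, doublets, clustering, scaling (TMM, edgeR 4.0.16), added CPM, depth and weighting. Positions are from GENCODE M21 on GRCm38, which held 99.6% of the gene identifiers. Python 3.11.15 and R 4.3.3 were used.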

Additional observations from a re-analysis of the deposited data

Results flagged for a closer look

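Snai2 differed between the libraries in opposite directions in different classes, past 1.5-fold with counting intervals that left out 0. Its log2 KO over WT ratio was 0.61 in vascular endothelial-like cells, from 56 KO and 50 WT UMIs, of which 1 cell held 26.8% in KO and 12% in WT. It was -1.34 in luminal progenitor, -1.08 in hormone-sensing luminal, -1.80 in B cell-like, -2.54 in T cell-like, -1.02 in dendritic-like and -0.84 in macrophage-like cells. These lower values rest on 2 to 108 KO and 29 to 252 WT UMIs per class, and often on 1 cell: the cell with most Snai2 held 80% of the WT UMIs in T cell-like cells, 44.4% in B cell-like cells, 48.5% in dendritic-like cells and 52.4% in progenitor cells. Counting intervals do not cover such spread between cells. The lower levels in KO were not particular to Snai2. In B cell-like cells 4 of the 6 factors with at least 20 UMIs were past 1.5-fold lower in KO and 0 higher. In T cell-like cells it was 4 of 5 and in dendritic-like cells 4 of 7, again with 0 higher. Macrophage-like cells had 3 lower and 1 higher of 9, and vascular endothelial-like cells 5 lower and 1 higher (Snai2) of 8. In fibroblast-like cells it was 1 lower and 0 higher of 9. The share of all genes past the fold was not taken in these classes. The further factors listed above also tilted downwards in KO. Of them, 18 of 33 in B cell-like, 13 of 33 in T cell-like and 21 of 40 in dendritic-like cells were past 1.5-fold lower. Past it upwards were 0, 0 and 1. The counts are thus no trait of the 10 factors alone.

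Within basal cells the ratio of Snai2 was 0.79 in cluster 3 and -0.27 in cluster 15, and that of Sox4 was 0.42 and -0.23, each with an interval on its own side of 0. With 1 library per genotype none of these differences between classes or clusters was tested.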

How the results depend on the processing

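Across 17 alternatives, 452 of 510 ratios of single factors moved by less than counting error and 58 moved by more. Counting error was taken from the intervals of the ratios without added CPM. Some of the 452 could not move. The minimum on UMIs does not enter a ratio, and a restriction to the largest basal or progenitor cluster leaves the other classes unchanged. No ratio past 1.5-fold took the opposite sign, though Trp63 was at 0 after thinning in both luminal classes. Of the smaller ratios, Sox10 in hormone-sensing cells went from -0.58 to 1.15 and Foxa1 in basal cells from -0.32 to 0.61 after thinning. The count of factors past 1.5-fold in basal cells was 1 in place of 0 with all deposited barcodes, with at most 5% mitochondrial UMIs, at resolution 0.5, at resolution 2, with cells classed one by one, after thinning to 2000 UMIs and in the largest basal cluster alone. In progenitor cells it was 1 in place of 3 with called doublets kept and with doublets removed up to the expected rate, and 5 with the mean over cells of CPM. In hormone-sensing cells it was 0 in place of 2 with 5 CPM added and after thinning. The cause of these moves was not tested. Between 6 and 8 factors had a leading class; Ehf had none with cells classed one by one and after thinning. Elf5 in progenitor cells stayed past 1.5-fold in 17 of 17 alternatives (0.62 to 0.87), and basal Gata3 (-0.46 to -0.29) and basal Sox4 (0.26 to 0.54) kept their sign. For each of these ratios some of the alternatives leave the value as it was by construction. The removal of doublets up to the expected rate and the restrictions to the largest basal or progenitor cluster were chosen after seeing the data. No paired analysis was possible because there is 1 library per genotype; for the same reason no replicate could be left out. Depth limits Trp63, Snai2 and Sox10 in hormone-sensing cells, with 2 to 30 UMIs per library.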
